A study of Mus musculus with 8 samples.

Results

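The genes described here carry 3 groups of cytokine signals into the intestinal epithelium. They are the receptor chains Il22ra1, Il10rb, Il4ra, Il13ra1, Il6st and Osmr, the transcription factors Stat3, Stat5a and Stat6, and the feedback inhibitor Socs3. They were chosen by name, as 10 of the 55487 named genes in the deposited count table. RNA was sequenced from ileal crypt cells of C57BL/6 mice given CPT-11 at 20 mg per kg for 7 days (4 libraries) or vehicle (4 libraries). CPT-11 is irinotecan, which the body converts to an inhibitor of topoisomerase I, and neither group carried an engineered allele according to the labels. Crypts were freed from the ileum with EDTA and dispersed with trypsin, with no sort, so cells outside the epithelium could be carried along. The labels do not say whether each library came from its own mouse, so p-values here reflect only how far these libraries spread, which may be technical.

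Interleukin 22 binds a pair of chains, Il22ra1 and the shared chain Il10rb, and in gut epithelium it acts mainly through Stat3 to induce antimicrobial genes. Interleukins 4 and 13 bind Il4ra together with Il13ra1 on cells that are not lymphocytes and act through Stat6, which drives goblet and tuft cell programs. Members of the interleukin 6 family share the chain Il6st (gp130), which pairs with a chain specific to each ligand, such as Il6ra, Osmr or Lifr, and Socs3 is a target of Stat3 that shuts gp130 signalling down.

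None of the receptor, STAT or Socs3 transcripts passed the test between CPT-11 and vehicle. Of 13 tested genes known as Stat3 targets 5 rose, against 2.98% of all genes tested. Saa1 rose too and is left out there, because it passed the filter only through the CPT-11 libraries. Of 10 tested genes known as Stat6 targets 2 fell, against 2.52% of all genes tested. Gsdmc3 fell too and is left out, because it passed only through the vehicle libraries. The 2 are near-identical gasdermin C copies, between which reads may be split. Both target lists were chosen with earlier results of these data known, so their counts are a description and not a test. Of the 10 receptor, STAT and Socs3 genes, 9 had enough counts to be tested. Of these 9, 0 were called, against 5.50% of all 14011 genes tested (edgeR quasi-likelihood test, two-sided, Benjamini-Hochberg adjusted p below 0.05). At an unadjusted p below 0.05 there was 1, Il13ra1, against 24.6% of all genes. DESeq2 also called 1, the same gene, against 13.4% of all genes. In 0 of the 9 did the groups separate completely, against 18.5% of all genes. The median log2 fold change of the 9 was 0.05, with 7 above 0, and that of all genes tested was 0.01. In bulk RNA of this kind, fewer cells of a type and less RNA per cell cannot be told apart. Levels are given as CPM, counts scaled to a common library size by TMM, and fold changes are CPT-11 against vehicle.

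Each library held 20790164 to 23479121 counts in all and detected 19029 to 20147 of the named genes. Epithelial markers were abundant (Epcam 1272 to 2013 CPM), and 0 of 8 passed the test. Of 10 crypt base markers 5 fell with CPT-11, against 2.52% of all genes tested. Among them were Lgr5 and Olfm4 (log2 fold changes -2.06 and -1.79, edgeR adjusted p = 7.92e-05 and 0.000782). Of the 10, 1 rose, Igfbp4 (0.79, adjusted p = 0.0129), against 2.98% of all genes. Of 12 enterocyte markers 1 rose, Fabp2, and their summed level was 11828 to 19833 CPM in vehicle libraries and 18727 to 59741 CPM in CPT-11 libraries, highest in CPT-11 replicate 2. That library stood apart. It correlated with the other CPT-11 libraries at Spearman rho 0.924 to 0.938 across genes, against 0.949 to 0.954 among those. It held less signal from genes of great deposited length. It held 22307604 counts in all, but TMM scaled it as a library of 16214320, which raised its CPM values. The other libraries were scaled as 20226573 to 23951501.

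**Figure D1:**
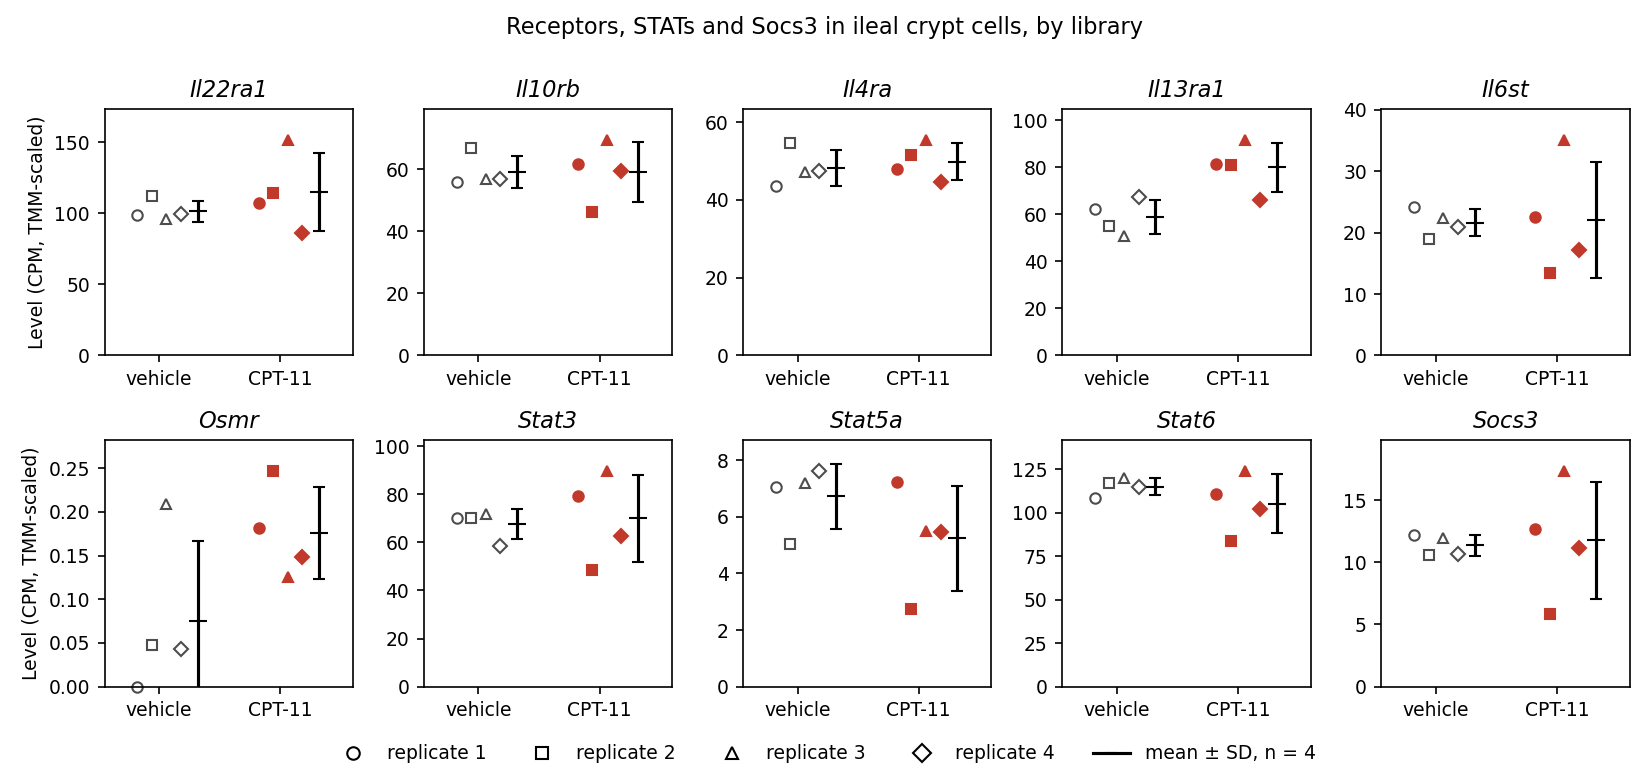
CPM of each of the 10 genes (vertical axes, each from 0) in the 4 vehicle libraries (open symbols) and the 4 CPT-11 libraries (filled symbols), with the mean and SD of each group and 1 symbol shape per replicate number. The groups overlap in all 10 panels, and in that of Il13ra1 3 CPT-11 libraries, at 81.0 to 91.6 CPM, lie above every vehicle library (50.9 to 67.3 CPM).

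Neither chain of the interleukin 22 receptor passed the test. Il22ra1, the chain that gives a cell its response to interleukin 22, lies on the plus strand of chromosome 4 at 135728172 to 135752140 (GRCm38, GENCODE M21, where all 10 genes are annotated as protein-coding). Il22ra1 stood at 98.5, 112, 95.8 and 99.9 CPM in vehicle replicates 1 to 4 and at 108, 115, 152 and 86.1 CPM in CPT-11 replicates 1 to 4. The CPT-11 libraries held both the highest and the lowest value, so the groups overlapped. Its mean was 102 ± 7.37 CPM in vehicle libraries and 115 ± 27.3 CPM in CPT-11 libraries (SD, n = 4 each). The fold change was 1.13, with a 95% interval from 0.872 to 1.47 (adjusted p = 0.525, edgeR).

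Il10rb, the partner chain that interleukin 22 shares with interleukin 10 and the lambda interferons, lies on the plus strand of chromosome 16 at 91406164 to 91425834. Il10rb measured 55.8, 66.8, 56.9 and 56.9 CPM in vehicle libraries and 61.8, 46.4, 69.5 and 59.3 CPM in CPT-11 libraries. CPT-11 replicate 2 was the lowest of all 8 libraries and CPT-11 replicate 3 the highest. Its fold change was 1.0 (95% interval 0.806 to 1.25, adjusted p = 0.987, edgeR). Per kilobase of exon, Il22ra1 was at 2.55 ± 0.0659 times the level of Il10rb with vehicle, a ratio that varied little between those libraries, and at 2.91 ± 0.673 times with CPT-11 (SD, n = 4 each). The ratios did not separate (exact permutation test, two-sided, p = 0.371, 0.619 after Benjamini-Hochberg adjustment over 5 ratios). The ratio was 3.66 in CPT-11 replicate 2 and 2.15 in replicate 4. Its size rests on the length used, though the comparison between groups does not. With vehicle, Il10rb was at 15.5 CPM per kilobase by merged exons, 21.2 by longest transcript and 31.9 by deposited length. Il22ra1 was at 39.6 by each.

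Among the chains for interleukins 4 and 13, Il13ra1 came nearest to the threshold. Il13ra1 (X chromosome, 36112110 to 36171259, plus strand) had 62.3, 55.2, 50.9 and 67.3 CPM in the vehicle libraries and 81.2, 81.0, 91.6 and 66.1 CPM in the CPT-11 libraries. All CPT-11 libraries but replicate 4 lay above every vehicle library, and replicate 4 lay within the vehicle range. The place of replicate 2 rests on TMM scaling, as its count of 1313 lay within the vehicle counts (1165 to 1577). The mean went from 58.9 ± 7.27 to 80.0 ± 10.5 CPM (SD, n = 4 each). The log2 fold change of 0.44 ± 0.14 (SE), a 1.36-fold difference with a 95% interval from 1.09 to 1.69, did not pass edgeR's test (adjusted p = 0.0968, and 0.0105 before adjustment). It passed in 4 of 18 alternatives, with DESeq2 (adjusted p = 0.0323), with limma-voom and quality weights (0.0151), with the trend on deposited gene length removed (0.0278) and without CPT-11 replicates 2 and 4 (0.0212). Over all 18 the adjusted p ran from 0.0151 to 0.258, and the log2 fold change was positive throughout, from 0.36 to 0.56.

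Il4ra is the signalling chain that both cytokines need, and it lies on the plus strand of chromosome 7 at 125552120 to 125579474. Its values were 43.6, 54.7, 47.3 and 47.6 CPM in vehicle libraries and 47.9, 51.5, 55.5 and 44.5 CPM in CPT-11 libraries. Both groups covered almost the same range, and the fold change was 1.03 (95% interval 0.855 to 1.25, adjusted p = 0.836, edgeR), the narrowest interval among the receptor chains. Per kilobase, the ratio of Il4ra to Il13ra1 was 0.432, 0.613, 0.574 and 0.437 in the vehicle libraries and 0.364, 0.393, 0.374 and 0.416 in the CPT-11 libraries. Every CPT-11 library thus had less Il4ra per Il13ra1 than any vehicle library (log2 difference -0.39). The exact two-sided permutation p was 0.0286, the smallest that 4 against 4 can give, and it did not pass after adjustment over the 5 ratios (0.143). With 1 library left out the log2 difference was between -0.30 and -0.47. The permutation p stayed at 0.0286 without any 1 vehicle library and was 0.0857 to 0.114 without any 1 CPT-11 library, where 0.0286 could also be reached.

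The gp130 chain Il6st (chromosome 13, 112464070 to 112510086, plus strand) was the most variable receptor chain among the CPT-11 libraries. Il6st was at 24.2, 19.0, 22.3 and 20.9 CPM in vehicle libraries and at 22.6, 13.4, 35.1 and 17.2 CPM in CPT-11 libraries. CPT-11 replicates 2 and 3 lay below and above all vehicle libraries, so the mean hardly differed (21.6 ± 2.19 and 22.1 ± 9.46 CPM, SD, n = 4 each) while the SD did. The fold change was 1.02 with a wide 95% interval, 0.683 to 1.54 (adjusted p = 0.946, edgeR). Fibroblasts also make gp130, and their markers and those of smooth muscle summed to 11.9 to 46.1 CPM in vehicle libraries and to 39.1, 24.5, 110 and 37.9 CPM in CPT-11 replicates 1 to 4, likewise lowest in replicate 2 of that group and highest in replicate 3. Of the 10 markers 6 were tested and 0 were called, none was at 0 in all libraries, and their part in the values of Il6st was not tested.

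Osmr, the chain that pairs with gp130 for oncostatin M (chromosome 15, 6813577 to 6874969, minus strand), was barely detected. Its counts were 0, 1, 5 and 1 with vehicle and 4, 4, 3 and 3 with CPT-11. Of these 8 values, 5 lay at or under 3 counts, which correspond to 0.125 to 0.185 CPM across the libraries, and the gene fell below the expression filter. With no filter its adjusted p was 0.532, and at this depth no difference could be detected.

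The 2 ligand-specific chains that would pair with gp130 for interleukin 6 and for leukaemia inhibitory factor were also scarce. Il6ra was measured at 2.0 to 2.84 CPM in vehicle and 1.30 to 2.34 CPM in CPT-11 libraries (log2 fold change -0.33, adjusted p = 0.441, edgeR). Lifr was below the filter, at 0.198 to 0.663 CPM over the 8 libraries. Of a list of 17 other cytokine receptor chains, which also holds Il17ra, Il17rb, Il17rc and Il1rl1 of the interleukin 17 and interleukin 1 receptor families, 12 were tested, and 0 rose and 0 fell, with a median log2 fold change of -0.03. At an unadjusted p below 0.05 there was 1 of them, against 24.6% of all genes. It was Il20rb (log2 fold change 0.78, edgeR adjusted p = 0.197), named after its value was seen. DESeq2 called 0, against 13.4% of all genes. Il20ra and Il13ra2, the decoy receptor for interleukin 13, had no count in any library.

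Because CPM does not correct for transcript length, levels were compared between genes as CPM per kilobase of merged exon. With vehicle, Il22ra1 was the highest of the 10, at 39.6 ± 2.87 CPM per kilobase, followed by Stat6 at 26.2 ± 1.15 (SD, n = 4 each). Il13ra1 (15.9 ± 1.96) and Il10rb (15.5 ± 1.36) came next and overlapped. Il4ra (8.04 ± 0.777) and Stat3 (7.09 ± 0.650) also overlapped with each other. These were followed by Socs3 at 3.93 ± 0.293, Il6st at 1.95 ± 0.197, Stat5a at 0.942 ± 0.161 and Osmr at 0.0062 ± 0.0076 CPM per kilobase, each of whose ranges lay apart from its neighbours'. With CPT-11 the means had the same order, and Stat6 overlapped with Il13ra1, Stat3 with Socs3 and Socs3 with Il6st as well. The places of some genes rest on the length used. In the vehicle group 6 of 10 genes kept their place when the longest transcript was used, which put Il10rb above Il13ra1 and Stat3 above Il4ra. With the deposited gene length 5 of 10 did, and Il10rb took the second place. By that length the vehicle ranges of Socs3 (4.16 to 4.78) and Il6st (3.66 to 4.65) overlapped too.

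**Figure D2:**
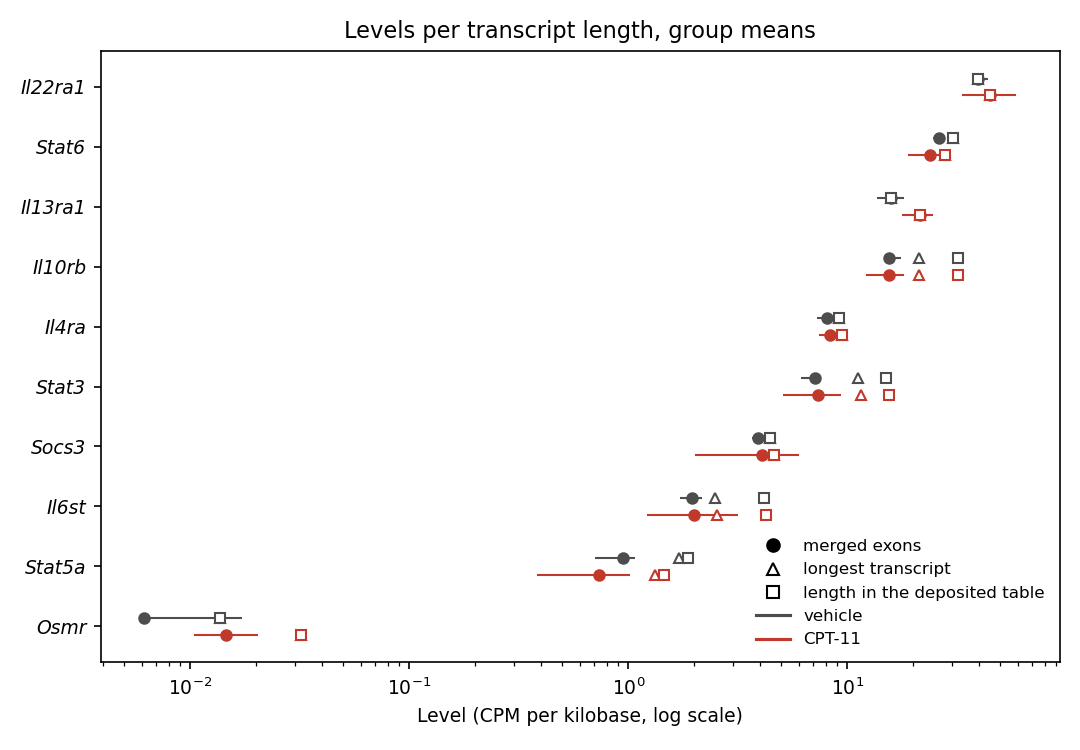
Mean level of each of the 10 genes in CPM per kilobase (logarithmic axis) with vehicle (grey) and CPT-11 (red), by merged exons (filled circles, with a line from the lowest to the highest library, not drawn down to 0), longest transcript (triangles) and deposited length (squares, which cover a circle or triangle at the same value). By merged exons Il22ra1 is highest in both groups (39.6 and 44.8), the interleukin 6 family chain Il6st is far lower (1.95 and 1.99), and Osmr is lowest.

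The STATs lie downstream of these receptors. Stat3 (chromosome 11, 100885098 to 100939540, minus strand), the main transducer for interleukins 22 and 6, stood at 70.0, 70.0, 71.8 and 58.3 CPM in vehicle libraries and at 79.3, 48.7, 89.6 and 62.7 CPM in CPT-11 libraries. The CPT-11 values lay on both sides of the vehicle values, and the fold change was 1.04 (95% interval 0.780 to 1.38, adjusted p = 0.874, edgeR). Stat6 (chromosome 10, 127642986 to 127660957, plus strand), the transducer for interleukins 4 and 13, was at 108, 117, 120.0 and 115 CPM in vehicle libraries and at 111, 83.5, 124 and 102 CPM in CPT-11 libraries. Again CPT-11 replicate 2 was the lowest library and replicate 3 the highest. Its fold change was 0.914 (95% interval 0.740 to 1.13, adjusted p = 0.569, edgeR). Per kilobase, the ratio of Stat3 to Stat6 was 0.271 ± 0.0266 with vehicle and 0.304 ± 0.0332 with CPT-11 (SD, n = 4 each), ranges that overlapped (exact permutation test, p = 0.229, 0.572 after adjustment over the 5 ratios).

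Stat5a, a transducer of growth hormone, prolactin and common gamma chain cytokines, had the lowest fold change of the 9 tested genes and did not pass the test. It lies beside Stat3 on chromosome 11 (100859351 to 100885169, plus strand), and the annotated ends of both genes overlap on opposite strands. Whether the counting used strand is not given in the sources used here, so reads from the overlap cannot be told apart. Stat5a had 7.05, 5.03, 7.18 and 7.62 CPM in vehicle libraries and 7.25, 2.73, 5.52 and 5.46 CPM in CPT-11 libraries. The lowest value was again that of CPT-11 replicate 2. The fold change was 0.781 (95% interval 0.509 to 1.20, adjusted p = 0.439, edgeR). Its near-identical neighbour Stat5b, with which reads may be shared, was at 17.6 to 23.0 CPM in vehicle libraries and 11.9 to 18.5 CPM in CPT-11 libraries (log2 fold change -0.44 ± 0.16 (SE), adjusted p = 0.135).

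Of 7 Janus kinases and other STATs, 0 rose and 0 fell, with a median log2 fold change of 0.10. There were 4 at an unadjusted p below 0.05 (Stat2, Stat4, Stat5b and Tyk2), against 24.6% of all genes. DESeq2 called 1 rise, against 13.4% of all genes called either way. Stat2, which acts in the response to interferons and was named after its values were seen, was at 19.0 to 29.0 CPM in vehicle libraries and 29.9 to 48.3 CPM in CPT-11 libraries. It was higher in every CPT-11 library and did not pass (log2 fold change 0.72 ± 0.20 (SE), adjusted p = 0.0628, and 0.0103 to 0.187 over 18 alternatives). Of the kinases that attach to the receptors above, Jak1 was at -0.02 (adjusted p = 0.957), Jak2 at 0.10 (0.751) and Tyk2, which binds Il10rb, at -0.34 (0.180). All 4 CPT-11 libraries (27.8 to 42.4 CPM) had less Tyk2 than any vehicle library (43.0 to 49.4 CPM). Such a separation, either way, was found in 18.5% of all genes tested.

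**Figure D3:**
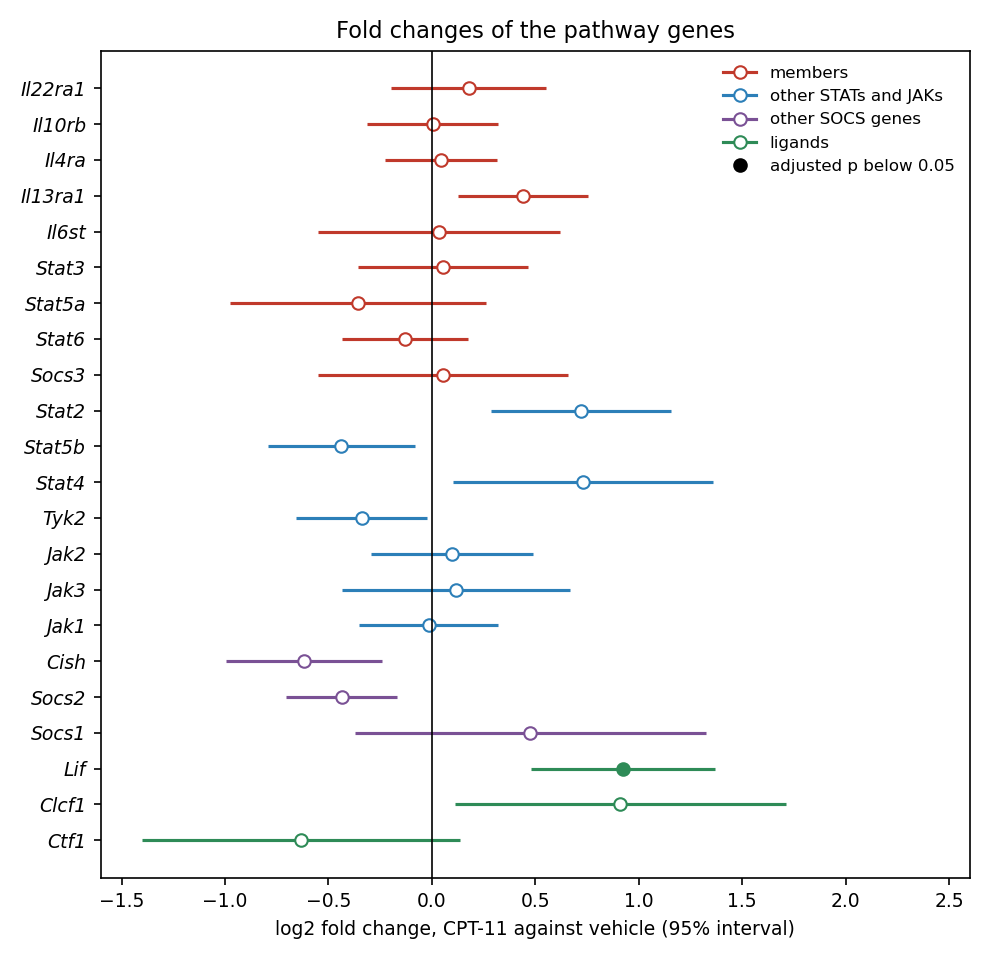
Log2 fold change of CPT-11 against vehicle with its 95% interval for the 9 tested receptor, STAT and Socs3 genes (labelled members), 7 other STATs and Janus kinases, 3 other SOCS genes and the tested ligands; a filled circle marks an adjusted p below 0.05. Lif is the only filled circle (0.92), and the wide intervals of Il6st (-0.55 to 0.62) and Socs3 (-0.55 to 0.66) span 0.

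Socs3, the Stat3 target that feeds back on gp130, lies on the minus strand of chromosome 11 at 117966079 to 117970047. Socs3 was at 12.2, 10.6, 12 and 10.7 CPM in the vehicle libraries, a narrow range, and at 12.7, 5.86, 17.3 and 11.2 CPM in the CPT-11 libraries. CPT-11 replicate 2 was below and replicate 3 above every vehicle library. The means were 11.4 ± 0.846 and 11.8 ± 4.72 CPM (SD, n = 4 each), a fold change of 1.04 (95% interval 0.683 to 1.58, adjusted p = 0.917, edgeR). Of 15 other SOCS proteins and inhibitors of the pathway, all tested, 0 rose and 0 fell by edgeR, with a median log2 fold change of -0.09. There were 2 at an unadjusted p below 0.05, against 24.6% of all genes. They were Socs2 and Cish, which feed back mainly on Stat5. DESeq2 called 2 falls, against 13.4% of all genes called either way. Socs2 was at 52.4 to 60.8 CPM in vehicle libraries and 35.9 to 46.8 CPM in CPT-11 libraries (log2 fold change -0.43 ± 0.12 (SE), adjusted p = 0.0656). Cish was at 9.81 to 15.5 and 7.83 to 9.29 CPM (-0.62 ± 0.17 (SE), adjusted p = 0.0642). Both were lower in every CPT-11 library than in any vehicle library, against 18.5% of all genes whose groups were apart either way. Their adjusted p ran over 18 alternatives from 0.00219 to 0.223 for Socs2 and from 0.0112 to 0.162 for Cish.

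STAT proteins bind inverted repeats in DNA, and the promoters of these genes were searched for 2 such letter patterns. The windows were the 250 bases before each RefSeq transcription start (GRCm38.p6), and windows were matched for 9 of the 10 genes, all but Il10rb, 10 windows in all. TTCNNNGAA reads the same on both strands and was found in 1 of the 10 windows, that of Socs3, against 7.02% of all 32851 windows. TTCNNNNGAA, the form with a wider spacer that Stat6 prefers, was found in 0 of the 10, against 5.85% of all windows. The Socs3 stretch is shown because it holds the single match, that of Il13ra1 because it had the smallest p of the 9 genes, with no match to either pattern, and that of Reg3b because it is a risen Stat3 target with a match to the first pattern. The windows of Reg3g, Saa1 and Duoxa2, searched as targets that also rose, held 0 matches to either pattern. No windows are reported for Nos2 and Fut2, which rose as well. Capitals mark the match. Socs3 is shown at chr11:117969452-117969616, minus strand, from 250 to 86 bases before the start. Il13ra1 is shown at chrX:36111858-36112107, plus strand, and Reg3b at chr6:78370707-78370860, plus strand, from 178 to 25 bases before the start.
Socs3: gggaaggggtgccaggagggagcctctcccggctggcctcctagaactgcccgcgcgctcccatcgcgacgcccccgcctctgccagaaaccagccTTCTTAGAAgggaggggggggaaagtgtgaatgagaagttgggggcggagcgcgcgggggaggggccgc
Il13ra1: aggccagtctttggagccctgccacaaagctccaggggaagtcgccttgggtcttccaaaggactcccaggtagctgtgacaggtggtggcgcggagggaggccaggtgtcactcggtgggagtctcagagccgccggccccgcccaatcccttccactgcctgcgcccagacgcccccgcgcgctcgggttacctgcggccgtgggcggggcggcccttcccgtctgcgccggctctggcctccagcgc
Reg3b: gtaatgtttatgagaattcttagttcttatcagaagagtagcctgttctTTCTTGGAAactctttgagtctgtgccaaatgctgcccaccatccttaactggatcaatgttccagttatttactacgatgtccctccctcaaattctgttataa
The match in Socs3, TTCTTAGAA, is centred 150 bases before the start, and the one in Reg3b, TTCTTGGAA, 125 bases before it. A match of letters is a description and does not show binding. Each stretch is the longest part of its window free of annotated exons. Those of Socs3 and Reg3b lie within the annotated span of their own gene, and that of Il13ra1 lies before it. The windows of the 9 genes were rich in G and C, at 56.8% to 71.6%.

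The ligands were nearly absent from this epithelial preparation. Of 17 ligand genes of these families, 9 had no count in any library, among them Il4 and Il13, which allows up to 3 counts per library (0.125 to 0.185 CPM, counting error only). Il22 had 1 count, in CPT-11 replicate 3, and Il6 had 1, in CPT-11 replicate 1. Markers of T cells and innate lymphoid cells, which make interleukin 22, were present at 121 to 237 CPM summed in vehicle libraries and 165 to 236 CPM in CPT-11 libraries, with 0 of 8 tested called. Of the ligands 3 were tested, and 1 rose, against 2.98% of all genes tested. Lif, a gp130 ligand that signals through Lifr, was at 2.31, 2.70, 3.38 and 3.07 CPM in vehicle libraries and 6.22, 5.12, 5.82 and 4.60 CPM in CPT-11 libraries. The groups did not overlap, and Lif rose with a log2 fold change of 0.92 ± 0.20 (SE), 1.90-fold (adjusted p = 0.0287, edgeR). That call was lost without any 1 vehicle replicate or without CPT-11 replicate 1 (adjusted p 0.0657 to 0.0979) and with no filter (0.0504). The other tested ligands, Clcf1 (0.91, adjusted p = 0.157) and Ctf1 (-0.63, adjusted p = 0.281), did not pass.

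Genes that interleukin 22 and Stat3 are known to induce in gut epithelium rose in part. Of 22 such genes 14 were tested, and 6 rose (Nos2, Duoxa2, Reg3g, Fut2, Saa1 and Reg3b) while 0 fell. Saa1 passed the filter only through the CPT-11 libraries, so a difference was built into its being tested. Without Saa1 5 of 13 rose and 0 fell, against 2.98% of all genes that rose and 2.52% that fell. The list was chosen with earlier results of these data known, so this count is a description and not a test. The median log2 fold change of the 14 was 0.76, with 11 above 0. Nos2, the inducible nitric oxide synthase, was at 6.67, 4.41, 4.84 and 4.78 CPM in vehicle libraries and at 44.1, 33.3, 80.0 and 23.7 CPM in CPT-11 libraries (log2 fold change 3.13 ± 0.36 (SE), adjusted p = 0.00179). Duoxa2, the maturation factor of an epithelial oxidase, rose from 4.58 to 7.52 CPM to 18.5 to 37.6 CPM (2.23 ± 0.26 (SE), adjusted p = 0.00194). All CPT-11 libraries lay above all vehicle libraries for both genes. Reg3g, a lectin that kills bacteria, rose from 158 to 323 CPM to 686 to 1748 CPM (2.33 ± 0.32 (SE), adjusted p = 0.00449), and Fut2, which adds fucose to the epithelial surface, rose by 1.93 on the log2 scale (adjusted p = 0.00914). Reg3b, of the same family as Reg3g, overlapped between groups and rose with 1.38 ± 0.33 (SE) (adjusted p = 0.0412), a call lost in 9 of 18 alternatives. Without CPT-11 replicates 2 and 4 its adjusted p was 0.197, and it was between 0.0756 and 0.133 without any 1 vehicle replicate and 0.0974 and 0.0978 without CPT-11 replicates 1 and 4. Saa1, an acute phase protein, rose from 0.0835 to 0.218 CPM to 0.460 to 3.56 CPM (adjusted p = 0.0127). Its call was lost without vehicle replicate 3 (0.0593) and with limma-voom (0.0579).

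The other 8 tested genes of that list did not pass, with 5 above 0 and 3 below. Duox2, the oxidase that Duoxa2 matures, was at 0.94 on the log2 scale (adjusted p = 0.0836) and Bcl3, a nuclear partner of NF-kappaB, at 0.58 (adjusted p = 0.110) and higher in every CPT-11 library. Below 0 were Pim1, a kinase (-0.37, adjusted p = 0.142), and a pair of secreted proteins. Reg3a, a lectin of the Reg3g family, was at -0.51 on the log2 scale (adjusted p = 0.260), and Dmbt1, a secreted scavenger receptor, had -0.98 (adjusted p = 0.108). Of the 8 genes too low to be tested, 3 were higher in every CPT-11 library in CPM (Saa3, Lcn2 and Steap4). In each, the lowest CPT-11 count did not exceed the highest vehicle count (4.76 and 5.01 for Saa3, 2 and 2 for Lcn2, 3 and 3 for Steap4). The separation thus rests on library scaling near the floor, and its share among all untested genes was not counted. Socs3, which is not on that list, had 0.05 as given above. Some of the genes that rose are also made by other cells, and their part in these results was not tested. Nos2 is a macrophage gene too. Of 12 macrophage and dendritic cell markers 9 were tested and 2 rose (C1qc and Cd14), and the list summed to 41.2 to 53.9 CPM in vehicle libraries and 50.8 to 71.5 CPM in CPT-11 libraries, with Adgre1, a defining marker, at 0.142 to 0.445 CPM in all libraries. Neutrophil markers summed to 0.379 to 0.916 and 0.923 to 1.61 CPM, with Ly6g at 0 throughout. Of 8 B and plasma cell markers 7 were tested and 5 rose, 4 of which passed the filter only through the CPT-11 libraries, and the list summed to 2.01 to 6.97 and 10.2 to 18.6 CPM. Of 15 dissociation stress genes 4 rose (Junb, Egr1, Hspa1a and Hspa1b), at 417 to 539 and 602 to 785 CPM summed. Beside these marker counts, 2.98% of all genes tested rose.

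Among known targets of interleukins 4 and 13 and Stat6, only gasdermin C genes passed the test, and they fell. Of 15 such targets 11 were tested, and 0 rose while 3 fell, all of the gasdermin C family of pore-forming proteins. The median log2 fold change of the 11 was -0.33. The other 8 tested genes did not pass, with 4 above 0 and 4 below. Gsdmc4 stood at 103, 102, 80.1 and 115 CPM in vehicle libraries and at 3.56, 2.84, 5.26 and 5.15 CPM in CPT-11 libraries, groups far apart (log2 fold change -4.57 ± 0.23 (SE), adjusted p = 9.26e-06). Gsdmc2 (-4.14) and Gsdmc3 (-4.56) fell by about as much, and reads may be split between these near-identical copies. Gsdmc3 passed the filter only through the vehicle libraries, and without it 2 of 10 fell, against 2.52% of all genes. This list too was chosen with earlier results of these data known, so the count is a description. The small proline-rich genes of the same list had positive values that did not pass, as for Sprr2a1 (1.48, adjusted p = 0.0716) and Sprr2a2 (1.44, adjusted p = 0.0835). Both were higher in every CPT-11 library than in any vehicle library, against 18.5% of all genes apart either way, while Sprr2a3 (1.11) overlapped. These genes are near-identical copies, named after their values were seen. With DESeq2, which called 13.4% of all genes either way, 3 genes of the list rose and 4 fell. The tuft cell gene Dclk1, also on the list, was at 7.27 to 9.20 CPM in vehicle libraries and 3.21 to 6.82 CPM in CPT-11 libraries (-0.74, adjusted p = 0.0835). Tuft cell markers summed to 30.1 to 40.9 and 26.6 to 33.6 CPM, with 0 of 7 tested called. Il4ra, Il13ra1 and Stat6, through which these targets are reached, had log2 fold changes of 0.05, 0.44 and -0.13.

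**Figure D4:**
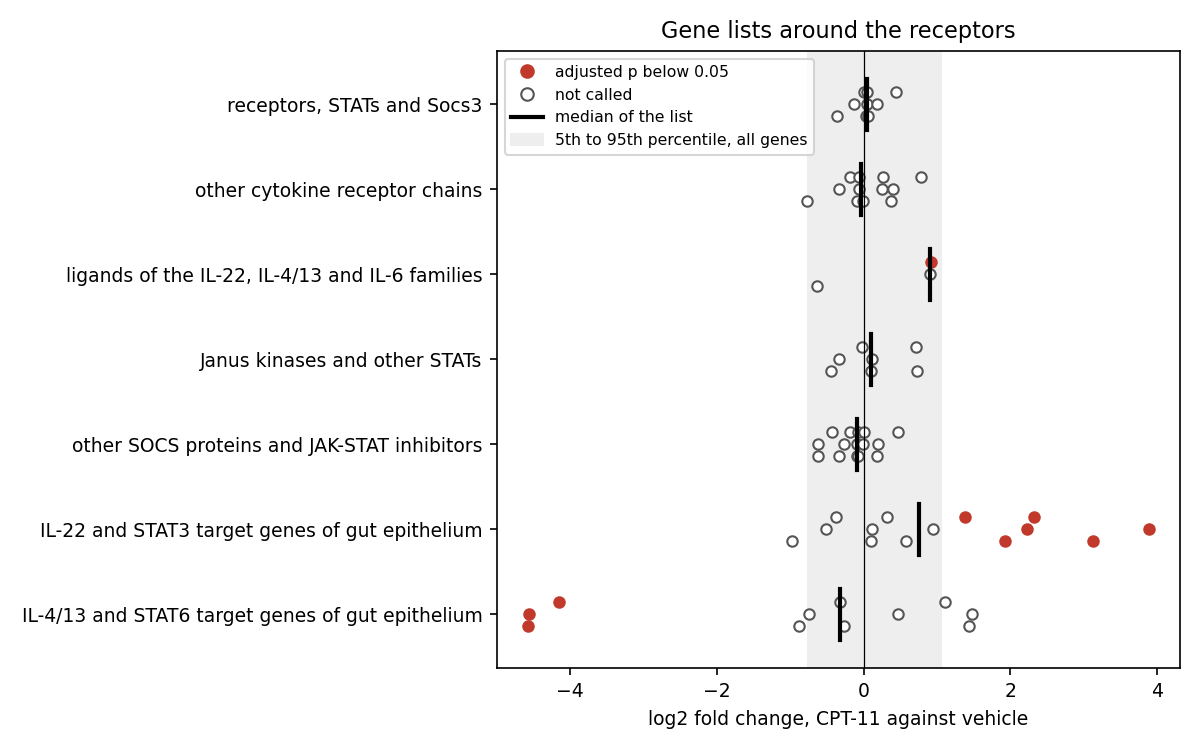
Log2 fold change of every tested gene in the 6 pathway lists beside the 9 tested receptor, STAT and Socs3 genes; each point is 1 gene, filled where the adjusted p is below 0.05, the short bar is the median of the list, and the grey band covers all genes tested but the extremes. The lists of receptors, kinases and inhibitors have medians between -0.09 and 0.10, the Stat3 targets 0.76 with 6 filled points above 0, and the Stat6 targets -0.33 with 3 filled points between -4.57 and -4.14.

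The CPT-11 libraries differed among themselves more than the vehicle libraries did for these genes. The median SD of log2 CPM over the 9 tested genes was 0.135 with vehicle and 0.335 with CPT-11, and over all genes tested it was 0.164 and 0.323. The SD was larger with CPT-11 in 9 of the 9 genes, by the smallest margin in Il4ra (0.135 in both to 3 digits), and in 80.7% of all genes. Within the CPT-11 group, Il10rb, Il6st, Stat3, Stat6 and Socs3, 5 of the 9 or 55.6%, were lowest in replicate 2 and highest in replicate 3. The same held for 20.1% of all genes tested and for 40.1% of the third of genes with the greatest deposited length (3559 bases or more), to which 6 of the 9 belong. Relative to the vehicle mean, the median of the 9 genes was 0.08, -0.46, 0.41 and -0.11 on the log2 scale in CPT-11 replicates 1 to 4. The median of those long genes was -0.07, -0.44, 0.07 and -0.25, and that of the third with the smallest deposited length was 0.07, 0.51, -0.09 and 0.24. In replicate 2 the median of the 9 genes thus lay beside that of long genes, and in replicate 3 it lay above it. The part of gene length in the members' values was tested only by removing the trend on deposited length, after which Il13ra1 passed (log2 fold change 0.54, adjusted p = 0.0278) and the other 8 did not.

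**Figure D5:**
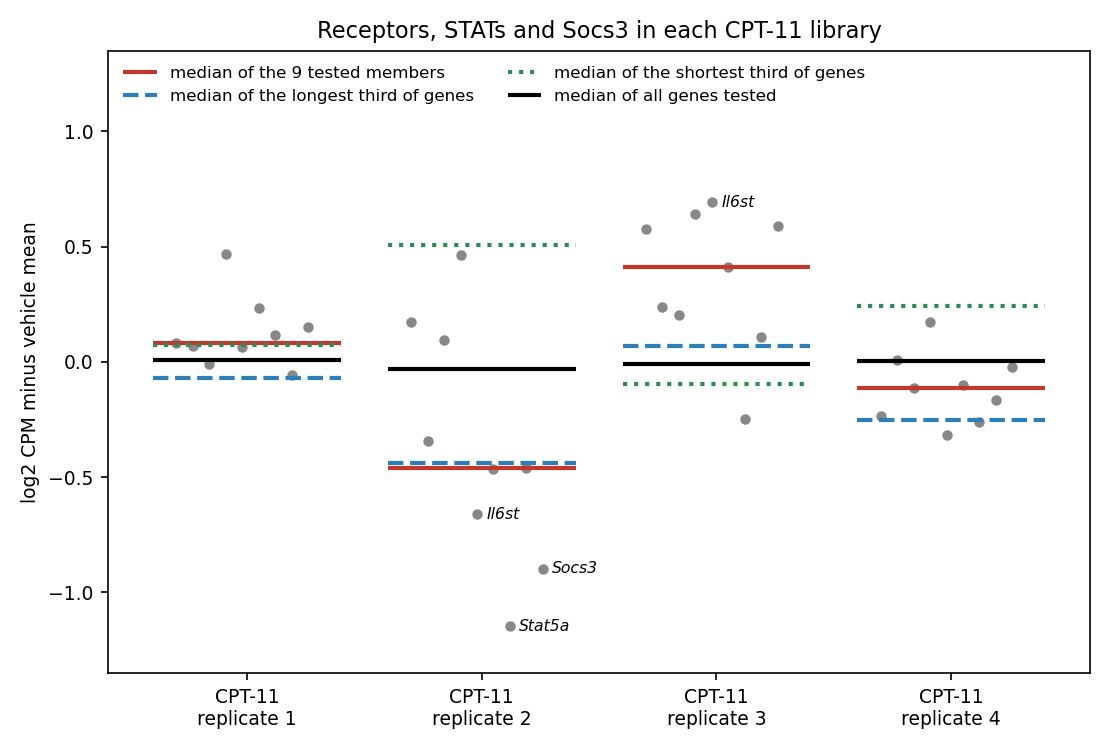
Log2 CPM minus the vehicle mean for the 9 tested genes (grey points, with the farthest named) in each CPT-11 library, with horizontal lines for the median of the 9 genes, of the third of genes with the greatest deposited length, of the third with the smallest and of all genes tested. The median of the 9 genes is -0.46 in replicate 2, beside -0.44 for the long genes, and 0.41 in replicate 3, where Il6st reaches 0.69 and Socs3 0.59.

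Genes with the most similar pattern over the 8 libraries were found for Il13ra1 and Stat5a, the 2 tested genes with the smallest p, by the Pearson correlation of log2 CPM with 0.5 CPM added. For Il13ra1 they were Mterf3 (r = 0.986), Parp14 (0.980) and Bclaf3 (0.969). Parp14, an ADP-ribosyltransferase, rose (log2 fold change 1.07, adjusted p = 0.0413). Mterf3 (0.23, adjusted p = 0.278) and Bclaf3 (0.58, adjusted p = 0.139) did not pass. For Stat5a they were Arih2 (0.984), Wdr6 (0.980) and Frmd4a (0.979), none of which passed the test. These are the highest of 14011 correlations over 8 libraries that share 1 contrast and the same differences between libraries, and they are given as a description.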

How the data were processed

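The authors deposited a table of estimated counts for 8 libraries, not normalized. Between 10.25% and 11.11% of each library's values were not whole numbers. Per the submitters' processing notes, Bowtie2 2.4.1 and genome build GRCm38.p6 were used; for the counting tool and its use of strand, neither is given in those sources. Rows with no gene name (543 of 56030, 0.325% to 0.662% of counts) were left out. Counts were rounded and tested with edgeR 4.0.16 (R 4.3.3; TMM scaling, default filter of about 10 counts, robust quasi-likelihood F test, no covariates), with Benjamini-Hochberg adjustment over all 14011 genes tested. Standard errors come from the F statistic. Groups follow the treatment label. Coordinates and exon lengths are those of GENCODE M21, in which 55141 of 55487 named genes were found. The alternatives were other scalings and filters, DESeq2 1.42.0, limma-voom (limma 3.58.1) with and without quality weights, a replicate block, removal of the trend on deposited gene length, and left-out libraries. The test was also run on simulated counts with the same spread in both groups and no length trend. That run does not cover the larger spread among the CPT-11 libraries. The members and lists were chosen with earlier results of these data known. Named genes are the members, up to 5 called genes of each list, a fixed set of 10 pathway genes (Il6ra, Stat5b, Socs1, Socs2, Cish, Jak1, Jak2, Tyk2, Reg3g and Gsdmc4), genes a result on a member turns on, and the 3 genes most like each of the 2 members with the smallest p. Stat2, Stat4, Lifr, Il20rb, Reg3a, Dmbt1, Duox2, Bcl3, Pim1, Saa3, Lcn2, Steap4, Igfbp4, Dclk1, Clcf1, Ctf1 and the Sprr2a genes were named after their values were seen. One further pathway gene is not reported here.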

Additional observations from a re-analysis of the deposited data

Results flagged for a closer look

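Single libraries stood far from the other 3 of their group in 5 of 58 groups of 4 libraries examined, by a gap larger than 0.829 of the group's range. Chance alone gives such a gap in about 1 in 20 groups. Il10rb was at 66.8 CPM in vehicle replicate 2, against 55.8 to 56.9 CPM in the other vehicle libraries. Stat3 was at 58.3 CPM in vehicle replicate 4, against 70.0 to 71.8 CPM. Jak2 was at 40.1 CPM in vehicle replicate 3, against 50.7 to 52.6 CPM. The remaining cases were both in CPT-11 replicate 2, the library that correlated least with its group. There Il6ra was at 1.30 CPM, against 2.18 to 2.34 CPM, and Socs1, an inhibitor of interferon and interleukin 4 signalling, was at 6.85 CPM, against 2.34 to 2.92 CPM. Without that library the log2 fold change of Socs1 was -0.0047, against 0.48 with it.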

How the results depend on the processing

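The number of genes called was within 1.5 times 770 in 6 of 18 alternatives (the other scalings and filters, limma-voom and the replicate block) and outside it in 12. DESeq2 called 1884 genes, limma-voom with quality weights 3172, removal of the length trend 1299 and leaving out CPT-11 replicates 2 and 4 1212, and each of these called 1 of the receptor, STAT and Socs3 genes, Il13ra1. Leaving out any 1 library gave 236 to 1522 genes, outside that range in all 8 cases. In those 8 and in the 6, 0 of the receptor, STAT and Socs3 genes were called. The labels do not say whether the replicate numbers pair the libraries, and the values did not settle it. Deviations of same-numbered libraries correlated at 0.31, 0.166, -0.158 and 0.121 for replicates 1 to 4. Vehicle replicates 1, 2 and 4 correlated best with the CPT-11 library of their own number, and vehicle replicate 3 did not. CPT-11 replicates 1 and 2 did so in turn, and CPT-11 replicates 3 and 4 did not. With the number as a replicate block 686 genes and 0 of the members were called. Under that block Lif and Reg3b lost their calls (adjusted p = 0.0653 and 0.0654), and 3 Stat6 targets rose. For the order of levels, 6 of 10 genes kept their place with the longest transcript and 5 with the deposited length, which was chosen after seeing the data.

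Fold changes near 0 turned sign, and the cause was not tested. Il10rb (log2 fold change 0.0046) was -0.019 with no filter, -0.0051 with limma-voom, -0.0052 with the block, -0.064 with the length trend removed and -0.086 to 0.12 with 1 library left out. Il4ra was -0.00079 with quality weights and -0.014 to 0.10 with 1 library left out. Il6st was -0.036 with limma-voom, -0.053 with the block and -0.29 to 0.22 with 1 left out. Socs3 was -0.016 and -0.035 in those fits and -0.20 to 0.28 with 1 left out, Stat3 -0.093 to 0.20 with 1 left out, and Stat6 0.033 without CPT-11 replicates 2 and 4. Jak1 was 0.021 with quality weights, 0.14 with the trend removed, 0.19 without those replicates and -0.16 to 0.082 with 1 left out. Socs1 was -0.0073 with quality weights, -0.11 without those replicates and -0.0047 to 0.65 with 1 left out, and Jak2 -0.058 to 0.20. Among the lists, the 6 rises of Stat3 targets became 4 to 6 with 1 library left out. The 3 falls of Stat6 targets became 6 with quality weights, where 22.6% of all genes were called. Counts of 218 and 95 for Il6st and Socs3 in CPT-11 replicate 2 limit precision less than the spread between libraries.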

Other observations

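Other receptor chains on the list, named here after their values were seen, had levels that overlapped between the groups, and none passed the test. Il17rc, a chain of the interleukin 17 receptor of epithelium, was at 143, 175, 180 and 176 CPM in vehicle libraries and at 142, 312, 163 and 185 CPM in CPT-11 libraries (log2 fold change 0.25, adjusted p = 0.518, edgeR). CPT-11 replicate 2 was the high library. Ifnlr1, the chain that pairs with Il10rb for the lambda interferons, was at 8.39 to 11.7 and 8.70 to 15.2 CPM (0.40, adjusted p = 0.243), while their genes Ifnl2 and Ifnl3 had no count in any library. Il2rg, the chain that pairs with Il4ra on lymphocytes in place of Il13ra1, was at 4.97 to 13 and 8.41 to 13 CPM (0.37, adjusted p = 0.460). Ptprc, which marks leukocytes, was at 10.5 to 38.0 and 15.2 to 29.7 CPM in the same libraries.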
